A study of Gossypium hirsutum with 63 samples.

Results

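The leaf of the medium hybrid, M, was compared with the leaf of its maternal parent, A, and with the leaf of its paternal parent, C. The members were the 3 M leaf libraries of the 63 libraries of the series, and they were set against the 3 libraries of A leaf and the 3 libraries of C leaf. M is an upland cotton (Gossypium hirsutum) F1 hybrid whose label gives the genotype as SJ48x51-2, A is the inbred line SJ48 and C is the inbred line 851-2, which the study's methods name as the paternal line of M. The whole series holds 3 hybrids chosen for high (H, SJ48x98-15), medium (M) and low (L, SJ48xT-8) yield heterosis and their 4 inbred parents (A, B which is Z98-15, C and D which is DT-8), each sampled as leaf, flower buds and ovule at 1 day post anthesis. Young leaves of different field-grown plants were picked at squaring, the stage at which the first flower buds form, and were pooled into composite samples, with 3 biological replicates of each genotype. No treatment was applied, so the groups differed in genotype alone as far as the labels say.

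Upland cotton is an allotetraploid, so most genes are present as an A subgenome copy and a D subgenome copy, called homoeologs, and the second part of an ID such as Gh_A13G1970 names the subgenome and chromosome of the gene. An F1 hybrid inherits 1 allele of each gene from either parent, and its transcript level can lie between the parents, match 1 of them, or lie outside both. Leaves of cotton also carry pigment glands that store sesquiterpene aldehydes such as gossypol. These compounds are built in the cytosol from acetyl-CoA by the mevalonate route, whose isoprenoid products are joined to give farnesyl diphosphate, which is folded by terpene synthases. Levels below are FPKM (fragments mapped per kilobase of transcript, scaled to the number mapped in the library), which are corrected for gene length. A fold change is the difference of mean log2(FPKM + 1) with M on top, which understates the change of low genes. A gene was called where limma, fitted to all 21 leaf libraries of the 7 genotypes, gave a Benjamini-Hochberg adjusted p under 0.05 over 60031 tested genes and a log2 fold change beyond 1 in either direction. Read counts were not used, so the counting error behind each value is unknown, and reads of homoeologs or of neighbouring copies may be shared between them.

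The libraries were alike in scale. Summed FPKM ran from 429981 to 433579 in M leaf, against 419317 to 439635 in A leaf and 431498 to 443984 in C leaf. Correlations of log2 values across genes, which are no independent replicates, were 0.919 to 0.933 among M libraries, 0.892 to 0.922 among A libraries and 0.913 to 0.930 among C libraries. The leaf label was not tested, since no flower bud or ovule values were set beside the leaf values. Levels are given for 58 leaf blade markers, chiefly light-harvesting and Rubisco genes. Their summed level was 13042, 16530 and 16787 FPKM in M, against 11290, 24120 and 17509 FPKM in A and 14725, 18198 and 22586 FPKM in C, so these markers were abundant in all 9 libraries and their ranges overlapped. Summed pollen and anther markers were 410, 651 and 954 FPKM in M, against 578, 742 and 603 FPKM in A and 610, 724 and 346 FPKM in C. In these whole-leaf samples fewer cells of a type and less RNA per cell cannot be told apart.

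A set of loci was on in 1 genotype and off in another, and these loci enter the counts that follow. A locus was taken as on at 2 FPKM or more in all 3 libraries of a genotype and as off at 0.1 FPKM or less in all 3, thresholds that were chosen after the values were seen. Of 59 loci that were on in C and off in A, 13 were off in M, and the other 46 had a median ratio of the M mean to the C mean of 0.454, with quartiles of 0.375 and 0.687. The ratio was below 0.05 at 17 of the 59 loci and from 0.35 to 0.6 at 26, so the loci fell mostly into a group near 0 and a group near the midpoint of the parents. In the other crosses, 3 of 50 loci that were on in B and off in A were off in H, and 3 of 80 loci that were on in D and off in A were off in L. Of 30 loci that were on in A and off in C, 1 was off in M. All but 3 of the 59 loci had no description. Some of the 13 came and went between libraries, and M held them in other tissues. Gh_Sca126258G01 stood at 12.0, 13.6 and 0 FPKM in M flower buds and at 9.36, 0 and 0 FPKM in A flower buds. MSTRG.253 had 5.17, 2.70 and 0 FPKM in M flower buds. Others, such as MSTRG.1631, stayed near 0 in every M library. Being off in M leaf therefore does not show by itself that M lacked the locus.

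MSTRG.1631, a transcript locus without a description, is an example. It stood at 0.0470, 0.0334 and 0.0386 FPKM in M, against 0, 0 and 0 FPKM in A and 15.4, 13.8 and 13.9 FPKM in C. The same locus was on in the other hybrids, at 7.84, 5.52 and 3.88 FPKM in H and 5.89, 5.95 and 7.46 FPKM in L. The M libraries were near 0 at a locus that every C library and every library of the other hybrids held. There were also 14 loci that were on in M and off in both of its parents, none of them described, against 3 for H and 7 for L. Of the 14, 6 were off in B, D, H and L as well, and 4 of these 6 were on in M flower buds and M ovule too. MSTRG.45656, for example, stood at 7.09, 5.69 and 3.50 FPKM in M leaf and was listed at 0 in all other leaf libraries, with 4.96, 3.74 and 3.71 FPKM in M flower buds and 5.36, 9.11 and 5.07 FPKM in M ovule. MSTRG.1631 and MSTRG.45656 were chosen after their values were seen. Whether the C plants sampled here and the pollen parent of M were the same line was not tested. The labels of all hybrids lack the first character of the paternal line's name, so the way the label of M writes it is not particular to M. Statements below that M was near A, between the parents or outside both refer to the sampled A and C libraries. The part of these loci in the results below was not tested. The counts of genes called against each parent, between the parents and beyond both are also given without every locus that was off in M, A or C. That is a wider set, since it asks for no genotype in which the locus was on. The other values include all loci.

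**Figure D1:**
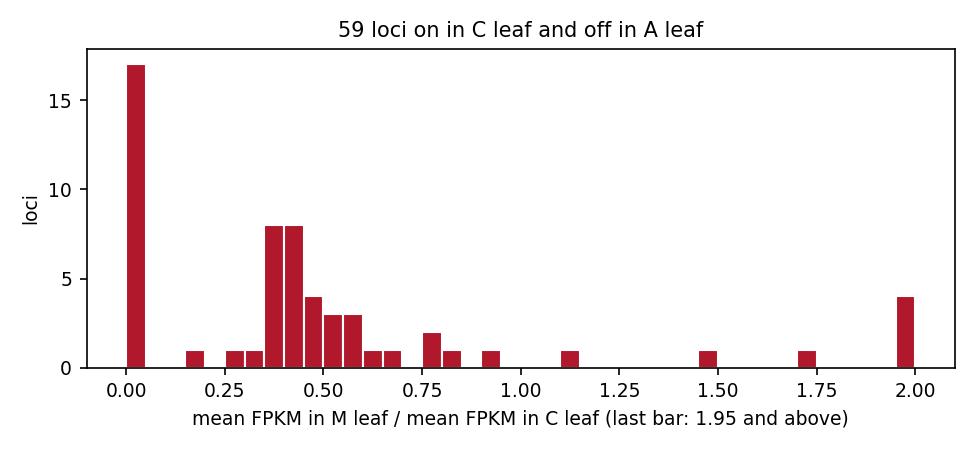
Number of loci (vertical axis) by the ratio of mean FPKM in M leaf to mean FPKM in C leaf (horizontal axis), for the 59 loci that were on in C leaf and off in A leaf. The ratio is below 0.05 at 17 loci and from 0.35 to 0.6 at 26 loci, and the last bar holds 4 loci at 1.95 or more.

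The first question was how many genes set the hybrid apart from each parent. More genes were called against C than against A, and in both comparisons more were higher than lower in M. Against A, 122 genes rose (0.203% of those tested) and 15 fell (0.025%). Against C, 270 genes rose (0.45%) and 130 fell (0.217%). Against the mean of both parents, 137 genes rose (0.228%) and 44 fell (0.0733%). The parents themselves differed at 355 genes (0.591%), and M differed from H at 112 genes (0.187%) and from L at 211 genes (0.351%). Median fold changes over all tested genes were 0.00 against A and 0.00 against C, on the log2 scale. A description was given for 44 of the 137 genes called against A and for 160 of the 400 called against C.

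Without the loci that were off in M, A or C, 248 genes differed between the parents, 54 genes rose and 13 fell against A, and 200 rose and 90 fell against C. Leaving these loci out lowered the number of genes that rose against A to 54, against 122 with them, which was a larger share of the calls than was lost against C. All 3 M libraries lay above, or all below, the 3 parent libraries at every called gene in both comparisons. Without A replicate 3 there were 156 genes higher and 48 lower than A, so the count of genes that fell against A rests on that library more than the count that rose. The comparisons with A and with C share the M libraries and are not independent of each other.

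**Figure D2:**
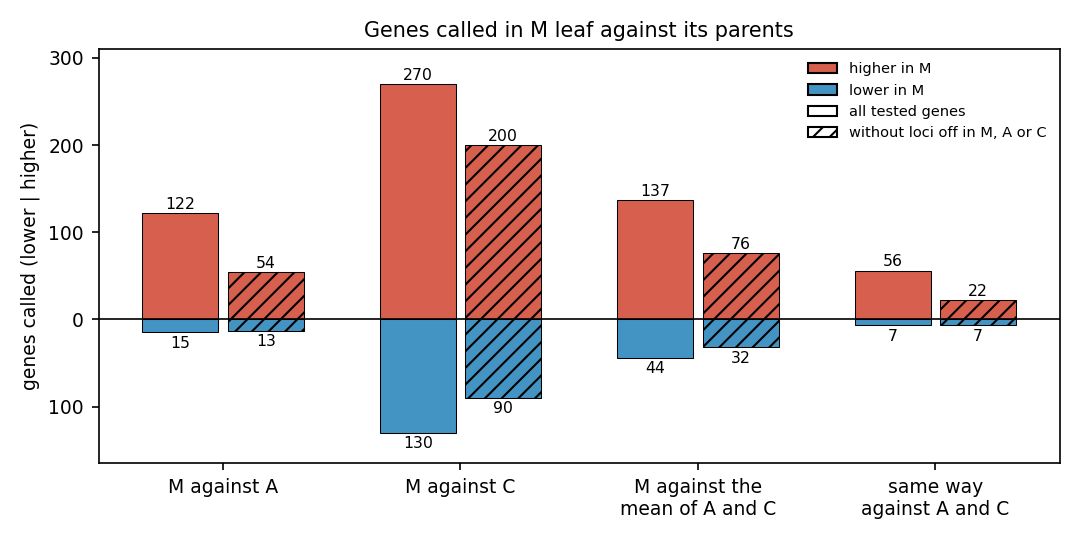
Number of genes called higher (upward bars) and lower (downward bars) in M leaf against A leaf, against C leaf, against the mean of both and the same way against both, with all tested genes (plain bars) and without loci off in M, A or C (hatched bars). Against C, 270 genes were higher and 130 lower with all genes, and 200 and 90 without those loci.

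Of the 45 gene lists, terpene synthesis had the largest share of calls, and all of their calls were higher in M. The terpene synthesis list was drawn by words of the description such as terpene, limonene, farnesyl, geranyl and cadinene, so it was not restricted to terpene synthases. Of its 70 tested genes, 9 rose and none fell against C, and 3 rose and none fell against A. Over all tested genes 0.45% rose against C and 0.203% rose against A. The median log2 fold change of the 70 genes was 0.094 against C and 0.093 against A, beside 0.00 over all tested genes. At 15 of the 70 genes (21.4%) all 3 M libraries lay above all 6 parent libraries, against 1269 of all tested genes (2.11%). Their summed level was 627, 590.4 and 634 FPKM in M leaf, against 468, 353 and 553 FPKM in A leaf and 386, 348 and 331 FPKM in C leaf. Every M library was above every parent library in this sum. The other leaves ranged from 339 to 612 FPKM, with D leaf, which is no parent of M, reaching 612 and 548 FPKM in 2 of its libraries. In flower buds the sum was 361, 287 and 274 FPKM in M, against 345, 272 and 256 FPKM in A and 392, 292 and 294 FPKM in C, and those ranges overlapped. In ovule it was 201, 216 and 203 FPKM in M, against 220.0, 224 and 223 FPKM in A and 198, 201 and 205 FPKM in C, so every M ovule library was below every A ovule library and within or above the range of C.

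Terpene synthases are the enzymes that fold prenyl diphosphates into cyclic terpenes, and most of those called were described as terpene synthase 21, a name taken from a sesquiterpene synthase of Arabidopsis. Gh_D11G2904 stood at 45.5, 44.5 and 44.6 FPKM in M, against 10.1, 14.7 and 13.2 FPKM in C and 20.7, 20.4 and 36.1 FPKM in A (log2 fold change 1.76 ± 0.19 (SE), adjusted p = 3.37e-05 against C). Its neighbour Gh_D11G2902 had 36.6, 35.7 and 36.4 FPKM in M, against 8.24, 10.8 and 9.55 FPKM in C and 16.6, 15.7 and 25.2 FPKM in A (1.83 ± 0.18, adjusted p = 1.09e-05 against C). For both genes the M libraries lay above all parent libraries, with A replicate 3 the closest. Both were also called higher than in H and in L, by 1.95 and 1.76 on the log2 scale for Gh_D11G2904 and by 1.97 and 1.83 for Gh_D11G2902. Reads of such neighbouring copies may be shared, so their values are uncertain as separate measurements.

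On A04, Gh_A04G1296 stood at 17.8, 15.2 and 17.0 FPKM in M, against 4.85, 4.72 and 3.98 FPKM in C and 8.41, 6.12 and 13.1 FPKM in A (1.68 ± 0.22, adjusted p = 0.000374 against C). The locus that joins Gh_D05G3506, Gh_D05G3507 and Gh_D05G3508 had 38.2, 34.0 and 32.2 FPKM in M, against 13.5, 11.4 and 10.3 FPKM in C and 20.2, 12.6 and 23.8 FPKM in A (1.49 ± 0.21, adjusted p = 0.000797 against C), and it was chosen after its values were seen. Here too each M library was above each parent library. Gh_A01G0555, the most abundant of the group, stood at 74.6, 61.6 and 67.3 FPKM in M, against 26.4, 24.95 and 18.3 FPKM in C (1.52 ± 0.29, adjusted p = 0.0119). Its call was lost without M replicate 1 and without C replicate 3, and A replicate 3, at 61.3 FPKM, was just below the lowest M library.

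Against A the called terpene synthases were others. Gh_A04G0198, another terpene synthase 21, stood at 26.6, 25.01 and 21.4 FPKM in M, against 9.40, 4.53 and 8.48 FPKM in A and 13.9, 11.0 and 10.6 FPKM in C (1.63 ± 0.22, adjusted p = 0.000982 against A). Gh_A09G0078, described as similar to the synthase of the monoterpene 1,8-cineole, had 1.5, 2.05 and 1.99 FPKM in M, against 0.187, 0.152 and 0.298 FPKM in A and 1.41, 1.17 and 0.878 FPKM in C (1.23 ± 0.12, adjusted p = 9.33e-06 against A). At both genes the M libraries were above the C libraries as well, without passing the test against C. Gh_A04G0923, described as terpene synthase 03, was called against both parents at a low level, with 2.34, 2.70 and 3.81 FPKM in M, against 0.491, 0.281 and 1.28 FPKM in A and 0.384, 0.659 and 1.07 FPKM in C. Neither of its calls held when M replicate 2, M replicate 3 or C replicate 2 was left out. The call against A was also lost without M replicate 1, A replicate 1 or A replicate 2, and the call against C without C replicate 1.

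Genes of the mevalonate route, which supplies the precursors of sesquiterpenes and sterols, were higher in M than in C at 5 of the 6 steps examined. These 52 genes were picked by KEGG orthology after it was seen that 11 of 225 genes (4.89%) of terpenoid backbone biosynthesis rose against C and none fell. Of the 52 genes, 9 rose and none fell against C, and at 14 all M libraries lay above all parent libraries. Over all tested genes 0.45% rose and 0.217% fell against C, and at 2.11% all M libraries lay above all parent libraries. The rise of the pathway was known when the 52 were picked, so their counts are no independent support. By step, the genes that rose against C were 2 of 5 for acetoacetyl-CoA thiolase, 2 of 10 for HMG-CoA synthase, 2 of 22 for HMG-CoA reductase, 1 of 2 for mevalonate kinase, none of 3 for phosphomevalonate kinase and 2 of 10 for mevalonate diphosphate decarboxylase. The steps are those of KEGG orthology, and some of the 52 genes carry the description of another protein. Examples are ARM repeat genes under HMG-CoA synthase and hydroxyproline-rich glycoprotein genes under HMG-CoA reductase, none of which was called. No gene of the 52 was called against A.

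Acetoacetyl-CoA thiolase opens the route by joining acetyl-CoA units. Gh_A11G1378 stood at 77.1, 65.8 and 73.7 FPKM in M, against 33.2, 33.6 and 33.8 FPKM in C and 47.9, 31.3 and 53.4 FPKM in A (1.08 ± 0.18, adjusted p = 0.00329 against C). A D subgenome gene of the same description, Gh_D11G3501, had 68.8, 58.9 and 61.4 FPKM in M, against 31.2, 27.0 and 26.4 FPKM in C and 39.8, 28.0 and 44.0 FPKM in A (1.13 ± 0.17, adjusted p = 0.00126 against C). In both, every M library was above every parent library, the C libraries were close together and A replicate 2 lay near them. HMG-CoA reductase makes mevalonate and is the rate-limiting enzyme of the route in animals and a main control step in plants. The locus of Gh_D02G1963 and Gh_D02G1964 stood at 7.98, 7.63 and 8.995 FPKM in M, against 3.27, 3.36 and 2.05 FPKM in C and 5.67, 3.63 and 5.14 FPKM in A (1.26 ± 0.17, adjusted p = 0.000389 against C). The adjacent Gh_D02G1965 had 13.9, 11.4 and 13.0 FPKM in M, against 6.82, 4.69 and 4.89 FPKM in C (1.1 ± 0.22, adjusted p = 0.0142), a call that was lost without M replicate 1 or 3 and without C replicate 2 or 3.

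Mevalonate diphosphate decarboxylase, which makes isopentenyl diphosphate and was assigned by KEGG orthology, stood at 40.4, 32.0 and 35.7 FPKM in M at Gh_A13G0092, against 16.4, 13.8 and 11.2 FPKM in C and 22.9, 15.1 and 28.4 FPKM in A (1.33 ± 0.21, adjusted p = 0.00223 against C). At Gh_D13G0107 it had 43.0, 35.9 and 35.4 FPKM in M, against 17.6, 16.1 and 11.9 FPKM in C and 27.1, 16.7 and 30.9 FPKM in A (1.28 ± 0.22, adjusted p = 0.00386 against C). Every M library was above every parent library at both genes. Both are described as GHMP kinase family proteins, and no gene described as mevalonate diphosphate decarboxylase 1 was called against C. Phosphomevalonate kinase, the step before, stood at 29.9, 26.4 and 29.7 FPKM in M at Gh_A12G1870, against 20.7, 15.9 and 13.6 FPKM in C and 23.7, 16.2 and 20.9 FPKM in A, a log2 fold change of 0.76 against C that was under the fold threshold, as was that of 0.62 at Gh_D12G2044. The HMG-CoA synthases Gh_A12G2052 and Gh_D03G1490 rose against C by 1.25 and 1.03 on the log2 scale and mevalonate kinase Gh_D11G3362 by 1.00, but each was lost in at least 3 of the fits that left out a library.

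Of the 9 mevalonate genes, 6 kept the call without C replicate 2 or without M replicate 1, 5 kept it without C replicate 3 or without M replicate 3, and 3 kept it when only the 9 libraries of M, A and C were fitted. The 2 that kept it under every setting were Gh_D02G1963 with Gh_D02G1964 and Gh_D11G3501. For terpene synthesis the number higher than C ran from 6 to 9 and the number higher than A from 2 to 8 when libraries were left out, the 8 being without A replicate 3. A single gene of the plastid route is given, chosen after its values were seen and with no count over that route. This gene, Gh_D13G0457, a 4-hydroxy-3-methylbut-2-enyl diphosphate reductase, had 20.6, 19.4 and 24.4 FPKM in M, against 12.0, 8.57 and 8.16 FPKM in C (1.099 ± 0.16, adjusted p = 0.00109).

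**Figure D3:**
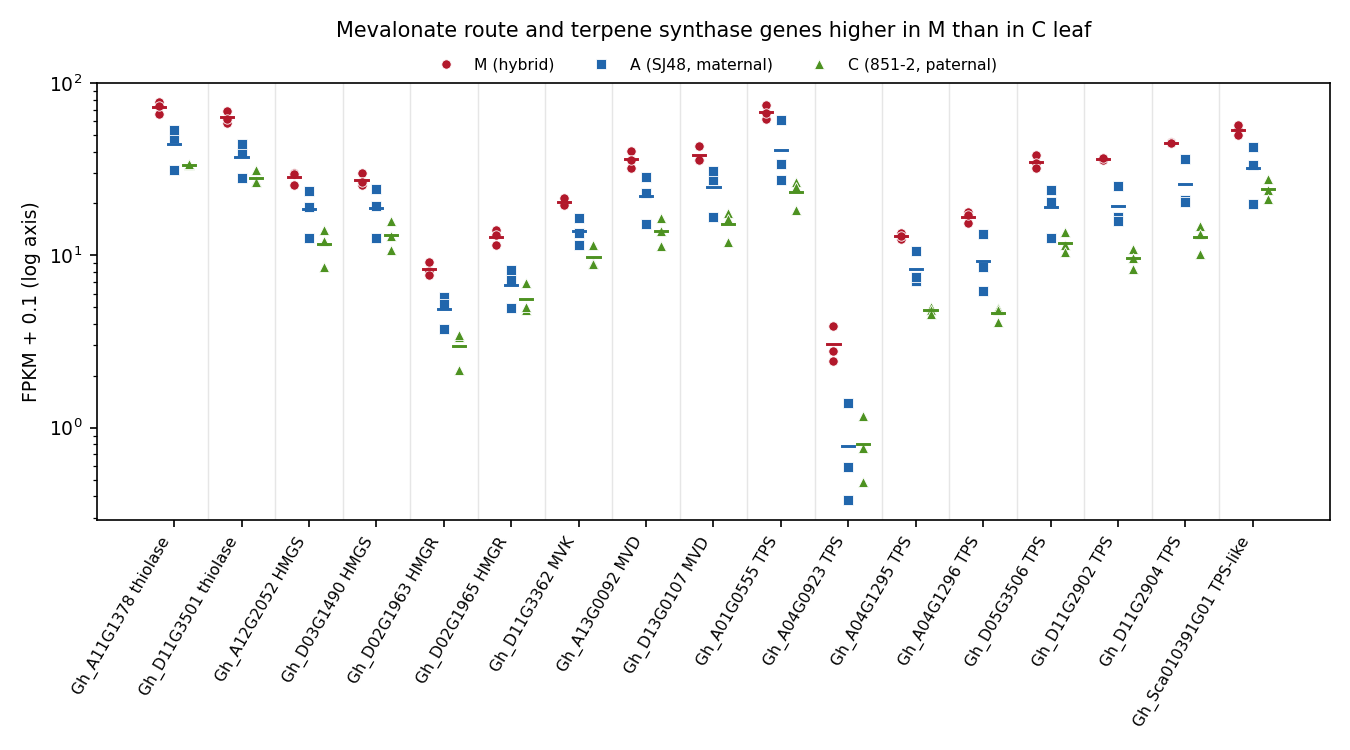
FPKM + 0.1 on a log axis for each M, A and C leaf library (points) with the mean (bar), for mevalonate route genes and terpene synthases called higher in M than in C (HMGS, HMG-CoA synthase; HMGR, HMG-CoA reductase; MVK, mevalonate kinase; MVD, mevalonate diphosphate decarboxylase; TPS, terpene synthase). M libraries are above all C libraries at each gene, and A libraries, such as the 3 of Gh_D11G2904 between 20.4 and 36.1 FPKM, lie mostly between them.

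Some genes of the family of 2-oxoglutarate and Fe(II)-dependent oxygenases, which hydroxylate or desaturate many plant metabolites, were called higher in M than in C, and those given here were chosen after their values were seen, with no count over the family. Gh_D13G2157 stood at 186, 163 and 170.4 FPKM in M, against 48.1, 55.1 and 49.4 FPKM in C and 72.1, 67.9 and 124 FPKM in A (1.75 ± 0.23, adjusted p = 0.000374 against C). Gh_A13G2343 had 161, 155 and 153 FPKM in M, against 47.3, 54.2 and 44.8 FPKM in C and 78.2, 68.2 and 116 FPKM in A (1.67 ± 0.22, adjusted p = 0.000305 against C). The same order of means, with C lowest and M highest, was seen at Gh_D13G2156, with 338, 299.7 and 333 FPKM in M, against 164, 109.7 and 91.6 FPKM in C and 225, 146 and 243 FPKM in A (1.44 ± 0.24, adjusted p = 0.00366 against C). M lay above all parent libraries at each of these genes, and a further neighbour, Gh_D13G2154, rose against C by 1.55 on the log2 scale. Of these 4 genes, 3 are close together on D13, and reads may be shared among them.

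Laccases, copper oxidases that polymerise phenolic compounds and take part in lignin formation, made up all 7 genes of the 111 in the lignin and phenylpropanoid list that rose against C. With all libraries none of the list fell against C, none was called against A, and its median log2 fold change was 0.032 against C and 0.024 against A. At 11 of the 111 genes (9.91%) all M libraries were above all parent libraries, against 2.11% of all tested genes. Over all tested genes 0.45% rose and 0.217% fell against C. Laccase 14 Gh_D05G2356 stood at 39.9, 38.9 and 45.8 FPKM in M, against 15.3, 13.6 and 11.1 FPKM in C and 27.2, 17.9 and 33.2 FPKM in A (1.57 ± 0.25, adjusted p = 0.00198 against C). Laccase 7 Gh_A04G0743 had 15.8, 15.1 and 17.4 FPKM in M, against 4.61, 6.44 and 4.83 FPKM in C and 6.36, 5.14 and 12.0 FPKM in A (1.45 ± 0.24, adjusted p = 0.00312 against C). The D subgenome laccase Gh_D04G1220 rose against C by 1.47 and the laccase 14 Gh_A05G2113 by 1.46 on the log2 scale. A different pattern was seen for laccase 17 Gh_A13G0216, which was near off in C, with 3.46, 4.40 and 4.03 FPKM in M, against 0.0470, 0.0516 and 0.0577 FPKM in C and 2.39, 4.95 and 4.05 FPKM in A (2.23 ± 0.16, adjusted p = 2.56e-07 against C). The remaining laccases, Gh_A05G2112 and Gh_D05G2357, were lost when M replicate 1 or M replicate 2 was left out, among other libraries, and Gh_A05G2112 and Gh_A05G2113 were chosen after their values were seen. The list held 3 calls when only M, A and C were fitted. Without C replicate 3 it held 5 genes higher and 4 lower than C, and without M replicate 2 or C replicate 2 it held 1 lower, so the absence of genes that fell rests on these libraries.

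Nutrient and redox genes followed. An A subgenome gene and a D subgenome gene of nitrate transporter 1:2, which moves nitrate into cells, were called against C. They were the only calls among 69 nitrate and ammonium genes (median log2 fold change -0.0038 against C). Gh_D05G1906 stood at 14.5, 14.7 and 14.4 FPKM in M, against 5.42, 5.24 and 4.51 FPKM in C, with A between them at 9.42, 8.54 and 13.0 FPKM. Gh_A05G1715 had 10.3, 9.67 and 10.9 FPKM in M, against 3.97, 3.73 and 3.43 FPKM in C, with A at 6.33, 5.74 and 7.84 FPKM. The calls of both genes held under every setting tried. Among 448 redox enzymes 8 rose and 2 fell against C, and 2 rose and none fell against A, with median log2 fold changes of -0.043 against C and -0.012 against A. Over all tested genes 0.45% rose and 0.217% fell against C, and 0.203% rose and 0.025% fell against A. The number that fell against C was 1 without M replicate 2 or 3 or C replicate 1 or 2, and 4 without C replicate 3. The count of calls against A was 1 without A replicate 2 and 4 without A replicate 3. Glyoxalase I family gene Gh_A03G0247, which acts in the removal of methylglyoxal, stood at 11.2, 8.93 and 11.4 FPKM in M, against 3.24, 2.63 and 3.02 FPKM in C (1.54 ± 0.23, adjusted p = 0.00134). Glutathione peroxidases, which reduce lipid and hydrogen peroxides, were above both parents and are described with those genes.

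Most of the largest differences from C were at genes where C itself stood far from A and M was near A. The Rossmann-fold gene Gh_A09G1283 had 39.1, 33.1 and 32.7 FPKM in M, against 2.50, 1.24 and 0.605 FPKM in C and 35.8, 19.7 and 33.2 FPKM in A (log2 fold change 3.95 ± 0.27 (SE), adjusted p = 9.95e-08 against C). The DAHP synthase gene Gh_A13G0603, which begins the shikimate pathway to aromatic amino acids, stood at 15.2, 13.9 and 13.7 FPKM in M, against 1.78, 1.09 and 1.01 FPKM in C and 10.9, 12.8 and 15.4 FPKM in A (2.75 ± 0.13, adjusted p = 1.31e-09 against C). M and A overlapped at both genes, and C was low. Chorismate synthase Gh_D10G2105, which ends the same pathway, had 13.2, 10.6 and 11.5 FPKM in M, against 1.81, 1.5 and 1.12 FPKM in C and 14.4, 6.45 and 10.7 FPKM in A (2.37 ± 0.26, adjusted p = 3.84e-05 against C). C was also low for a WRKY transcription factor, Gh_D13G1418, at 6.34, 6.82 and 6.23 FPKM in M, against 0.663, 0.912 and 0.767 FPKM in C and 8.48, 7.51 and 6.29 FPKM in A. Fatty acid hydroxylase 1 Gh_D06G1958, a gene of wax and fatty acid modification, stood at 53.8, 55.7 and 54.4 FPKM in M, against 19.7, 16.2 and 14.1 FPKM in C (1.67 ± 0.21, adjusted p = 0.000202). Lipoxygenase family gene Gh_D09G2080 was the 1 call among 104 jasmonate genes, with 17.99, 17.6 and 17.4 FPKM in M, against 4.17, 6.06 and 5.23 FPKM in C and 20.7, 10.8 and 12.9 FPKM in A (1.61 ± 0.27, adjusted p = 0.00329 against C).

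The ankyrin repeat gene Gh_Sca005280G01 was above both parents in every library, with 66.5, 58.2 and 54.3 FPKM in M, against 6.37, 4.40 and 3.21 FPKM in C (3.45 ± 0.26, adjusted p = 4.29e-07) and 45.3, 20.4 and 26.0 FPKM in A, where the fold change of 1.02 did not pass the test. Gh_A09G1448, of the Rossmann-fold family, lay between the parents at 37.8, 39.8 and 35.7 FPKM in M, against 8.50, 8.15 and 9.18 FPKM in C and 68.2, 78.1 and 69.0 FPKM in A (2.01 ± 0.15, adjusted p = 2.26e-07 against C). In both genes C had the lowest libraries. They differed in the place of A, which was below M in the first and above it in the second.

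Genes that fell against C were mostly genes that stood high in C alone. The thioredoxin family gene Gh_A06G0017, of a family that reduces disulfide bonds, had 0.261, 0.172 and 0.516 FPKM in M, against 9.68, 8.42 and 9.59 FPKM in C and 0.761, 0.114 and 0.274 FPKM in A (log2 fold change -2.96 ± 0.15 (SE), adjusted p = 3.48e-09 against C). Gh_A05G1247, which encodes an SGS domain protein, stood at 4.59, 2.56 and 4.38 FPKM in M, against 39.1, 32.0 and 26.7 FPKM in C and 3.90, 4.29 and 4.55 FPKM in A (-2.81 ± 0.20, adjusted p = 1.8e-07 against C). M and A overlapped at both genes, and all C libraries were far above. Aldehyde dehydrogenase 7B4, which oxidises reactive aldehydes, had 5.46, 4.85 and 4.75 FPKM in M at the locus of Gh_A06G1257 and Gh_A06G1256, against 25.04, 24.3 and 25.6 FPKM in C and 8.20, 5.45 and 5.28 FPKM in A (-2.11 ± 0.12, adjusted p = 1.25e-08 against C). Over the 130 genes that fell against C, the median log2 fold change of M against A was -0.082, and 81 of them were within 0.5 of A.

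Other falls against C were smaller or rested on few libraries. Small GTPase gene Gh_D08G1540, described as RAS 5, stood at 1.24, 2.00 and 0.960 FPKM in M, against 11.2, 6.20 and 8.46 FPKM in C (-1.99 ± 0.21, adjusted p = 2.65e-05). Alpha-amylase-like 2 gene Gh_A06G0010, the 1 call among 130 starch enzymes, had 5.37, 6.17 and 4.78 FPKM in M, against 16.0, 12.5 and 13.0 FPKM in C (-1.20 ± 0.20, adjusted p = 0.00299). The receptor-like kinase gene Gh_A05G1284 had 0.158, 0.145 and 0.0533 FPKM in M, against 1.60, 1.85 and 2.22 FPKM in C and 0.141, 0.0485 and 0.0593 FPKM in A. A light-harvesting gene of photosystem II, Gh_D01G2232, stood at 3.54, 3.09 and 2.83 FPKM in M, against 6.25, 37.2 and 49.4 FPKM in C (-2.54 ± 0.47, adjusted p = 0.00832). C replicate 1 was far below the other C libraries at that gene, and the call was lost without C replicate 2.

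The described genes that rose most against A included genes that A held at a low level and that M carried at a level between its parents. Nine-cis-epoxycarotenoid dioxygenase 4 (NCED4) Gh_D12G2009, a carotenoid cleavage enzyme, had 3.80, 4.47 and 6.48 FPKM in M, against 0.125, 0.206 and 0.0296 FPKM in A and 10.3, 11.2 and 9.94 FPKM in C (2.38 ± 0.15, adjusted p = 5.1e-08 against A). UDP-glucosyl transferase 75B2, of a family that adds glucose to small molecules, stood at 6.30, 7.10 and 8.49 FPKM in M at Gh_D02G0232, against 0.481, 1.03 and 0.620 FPKM in A and 13.5, 17.97 and 13.7 FPKM in C (2.28 ± 0.15, adjusted p = 5.38e-08 against A). Its neighbour Gh_D02G0230, of the same description, rose against A by 1.65 on the log2 scale. All M libraries lay between the A and the C libraries at Gh_D12G2009 and Gh_D02G0232. General regulatory factor 2, a 14-3-3 protein that binds phosphorylated proteins, stood at 4.82, 5.09 and 5.43 FPKM in M at Gh_A01G0110, against 0.855, 0.554 and 0.783 FPKM in A and 10.3, 10.9 and 9.89 FPKM in C (1.82 ± 0.14, adjusted p = 4.36e-07 against A). Pseudouridine synthase Gh_D10G2087, an RNA modifying enzyme, had 6.33, 7.09 and 6.67 FPKM in M, against 1.403, 0.988 and 1.19 FPKM in A and 13.4, 12.0 and 12.1 FPKM in C (1.81 ± 0.15, adjusted p = 9.32e-07 against A). The plastid developmental gene Gh_D08G0252 ranked alike, with 11.9, 10.04 and 11.6 FPKM in M, against 3.15, 2.55 and 3.86 FPKM in A and 19.1, 15.8 and 19.0 FPKM in C. Gh_A01G0110 and Gh_D08G0252 were chosen after their values were seen.

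A second group had no transcript listed in A leaf. Gh_Sca056842G01, described as little nuclei1, a nuclear architecture gene, stood at 5.26, 5.56 and 4.12 FPKM in M, was listed at 0 in all A leaf libraries and had 8.28, 5.43 and 4.62 FPKM in C (adjusted p = 0.00769 against A). Its values came and went between libraries, with 0, 4.30 and 0 FPKM in H leaf. In A ovule it had 5.20, 5.18 and 4.95 FPKM, so A did not lack it. Gh_D05G3549, a CRM domain RNA-binding gene, had 2.82, 2.76 and 3.65 FPKM in M, was listed at 0 in A and had 2.74, 2.50 and 1.47 FPKM in C (adjusted p = 2.43e-05 against A). M and C overlapped at both. Next to it by name, the NB-ARC disease resistance locus of Gh_D05G3548 and Gh_D05G3555, of a family of immune receptors, stood at 3.62, 3.09 and 3.08 FPKM in M, against 0.0110, 0.0236 and 0.00510 FPKM in A and 1.097, 1.61 and 1.19 FPKM in C (2.07 ± 0.11, adjusted p = 6.68e-09 against A), with M above both parents in every library. Falls against A were few. Calcium-dependent lipid-binding gene Gh_A10G2066 had 0.0176, 0 and 0.0178 FPKM in M, against 6.55, 4.30 and 11.3 FPKM in A and 0.0486, 0.0330 and 0 FPKM in C (-2.96 ± 0.39, adjusted p = 0.000601 against A), and it was the locus on in A and off in C that was also off in M. Gh_D08G0853, of unknown function, stood at 1.94, 1.83 and 2.02 FPKM in M, against 4.92, 4.83 and 5.53 FPKM in A and 4.20, 4.24 and 5.13 FPKM in C (-1.05 ± 0.12, adjusted p = 7.97e-05 against A).

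The next question was which genes lay outside both parents. In 56 genes (0.0933% of those tested) M was called higher than A and higher than C, and in 7 (0.0117%) it was called lower than both. Without loci that were off in M, A or C these counts were 22 and 7. They were 50 and 2 without A replicate 1, and 45 and 3 when only M, A and C were fitted, so the count of genes below both rests largely on that library and on the spread taken from the other genotypes. In every one of the 63 genes the M libraries were outside the range of all 6 parent libraries. A description was given for 13 of the 56 and for 2 of the 7. Irrespective of calls, all M libraries lay above all parent libraries at 1269 genes and below them at 871.

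The Rossmann-fold gene Gh_A13G1970, of a family of NAD(P)-dependent oxidoreductases, stood out. It had 48.8, 56.0 and 54.3 FPKM in M, against 4.26, 2.80 and 2.24 FPKM in A and 2.68, 2.78 and 2.76 FPKM in C. The log2 fold change was 3.75 against A and 3.85 against C, and M was also higher than H by 3.64 and than L by 3.603. Lower levels with the same order were seen at Gh_A07G0026, a FatB type thioesterase that frees newly made fatty acids from acyl carrier protein, with 5.25, 5.75 and 5.47 FPKM in M, against 0.968, 0.937 and 1.21 FPKM in A and 1.12, 0.614 and 0.670 FPKM in C (log2 fold change 1.67 against A and 1.86 against C). At this gene H leaf had 4.65, 7.06 and 5.70 FPKM and L leaf 3.27, 2.34 and 5.40 FPKM, and the differences of -0.053 from H and 0.53 from L did not pass the test.

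Glutathione peroxidase 6 Gh_D09G1595 stood at 10.6, 9.84 and 10.1 FPKM in M, against 3.85, 0.634 and 2.18 FPKM in A (1.93 ± 0.31, adjusted p = 0.00540) and 1.92, 0.915 and 1.59 FPKM in C (2.20 ± 0.31, adjusted p = 0.000703). Glutathione peroxidase 2 Gh_A09G2408 had 31.8, 26.7 and 33.9 FPKM in M, against 17.3, 9.39 and 13.6 FPKM in A (1.17 ± 0.19, adjusted p = 0.00577) and 10.9, 10.1 and 8.10 FPKM in C (1.58 ± 0.19, adjusted p = 0.000133). The 3 M libraries were close together at both genes, whereas A libraries spread widely, and the call of Gh_A09G2408 against A was lost without A replicate 2. Gh_D02G0127, with BED zinc finger and hAT dimerisation domains as found in hAT transposases, stood at 2.32, 2.11 and 2.52 FPKM in M, against 0.138, 0.140 and 0.111 FPKM in A and 0.0570, 0.0863 and 0.0276 FPKM in C (log2 fold change 1.55 against A and 1.65 against C). Gh_D06G2309, described as CW7, had 3.38, 3.16 and 3.01 FPKM in M, against 0.565, 0.228 and 0.479 FPKM in A and 0.520, 0.523 and 0.475 FPKM in C (log2 fold change 1.56 against A and 1.47 against C). Both were called higher than in H and in L as well. Gh_D09G1543, a homeodomain-like transcription factor gene, was near 0 in both parents, with 1.097, 1.73 and 1.85 FPKM in M, against 0.113, 0.0614 and 0.0762 FPKM in A and 0.0768, 0.00130 and 0.103 FPKM in C (log2 fold change 1.23 against A and 1.26 against C).

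Some genes of the group rested on a few libraries. The chaperone gene heat shock protein 90.1 Gh_D03G1421 stood at 3.44, 3.26 and 2.51 FPKM in M, against 0.706, 0.739 and 0.384 FPKM in A and 0.428, 0.559 and 0.210 FPKM in C, and its call against A, at 1.34, was lost whichever of the 9 libraries of M, A and C was left out. Ribosomal L27e gene Gh_A07G0751 had 32.3, 30.2 and 35.7 FPKM in M, was listed at 0 in all A libraries and had 0, 8.59 and 0 FPKM in C. C replicate 2 alone held a value there, and the calls against A and against C were both lost without any 1 of the M libraries and without A replicate 1 or 2. The call against C was also lost without A replicate 3, C replicate 1 or C replicate 3. Aldehyde dehydrogenase 11A3 Gh_A05G0479, chosen after its values were seen, had 18.7, 15.5 and 17.0 FPKM in M, against 8.28, 6.85 and 6.17 FPKM in A and 7.06, 4.87 and 4.10 FPKM in C, and its call against A was lost without M replicate 1 or 3 and without A replicate 2 or 3. O-methyltransferase 1 Gh_D12G2369, likewise chosen afterwards, held both calls whichever library was left out, with 1.33, 1.66 and 1.09 FPKM in M, against 0, 0 and 0.0928 FPKM in A and 0.159, 0 and 0 FPKM in C.

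Of the 7 genes below both parents, the major facilitator gene Gh_A12G2638, of a family of membrane transporters, stood at 7.95, 5.65 and 6.70 FPKM in M, against 26.4, 16.1 and 12.4 FPKM in A (-1.26 ± 0.19, adjusted p = 0.00249) and 16.2, 14.9 and 16.4 FPKM in C (-1.13 ± 0.19, adjusted p = 0.00329). Its call against A was lost without A replicate 1, the highest A library. Cytochrome P450 gene Gh_D11G1440, of subfamily 82C, had 0.302, 0.431 and 0.642 FPKM in M, against 3.09, 2.92 and 2.23 FPKM in A and 3.51, 3.08 and 0.815 FPKM in C. C replicate 3 was near the M libraries, and neither of its calls held without M replicate 1 or M replicate 2. The undescribed locus MSTRG.34051, chosen after its values were seen, kept both calls whichever library was left out, with 0.0344, 0.322 and 0.508 FPKM in M, against 5.94, 3.07 and 3.05 FPKM in A and 6.63, 5.56 and 5.57 FPKM in C (log2 fold change -1.93 against A and -2.44 against C).

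**Figure D4:**
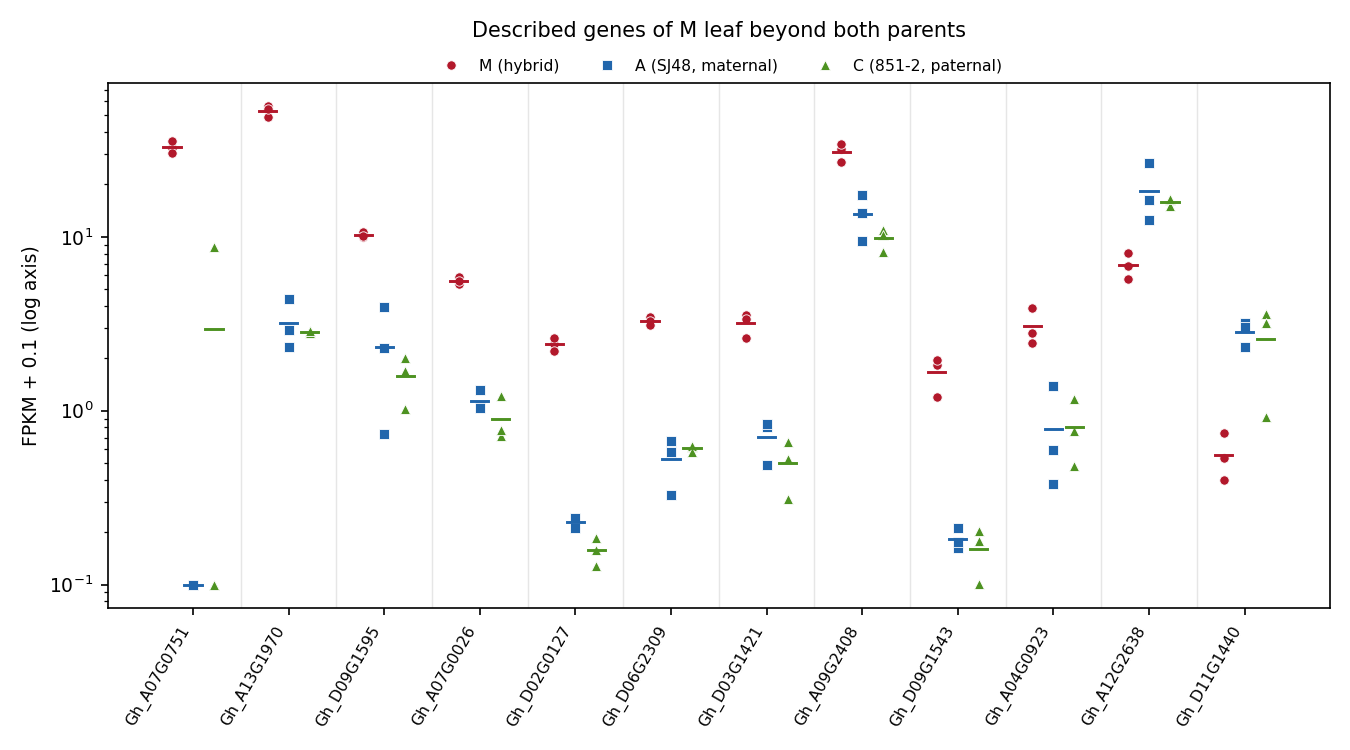
FPKM + 0.1 on a log axis for each M, A and C leaf library (points) with the mean (bar), for 10 described genes called higher and 2 called lower in M than in both parents. Gh_A13G1970 stands between 48.8 and 56.0 FPKM in M, with all 6 parent libraries at or below 4.26 FPKM.

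Where the parents differed, the place of M between them was examined. Among the 355 genes called different between C and A, 191 were higher and 164 lower in C, while without A replicate 1 these counts were 306 and 180. M was called against neither parent at 128 of them, against C alone at 156, against A alone at 49 and against both at 22. On the FPKM scale, with A at 0 and C at 1, the median place of M was 0.366 for genes higher in C and 0.371 for genes lower in C, so both medians were on the A side of the midpoint on that scale. On the log2(FPKM + 1) scale of the fit the medians were 0.52 for genes higher in C, with 98 genes closer to C and 93 closer to A, and 0.25 for genes lower in C. Of the 191 genes higher in C, 83 had a place below 0.25, 82 from 0.25 to 0.75 and 26 above 0.75. Of the 164 genes lower in C, these counts were 62, 93 and 9. A place within 0.15 of A was found for 70 of the 191 and 32 of the 164, and a place within 0.15 of C for 8 and 6. These places are a description, since the parent values that chose the genes also enter them.

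**Figure D5:**
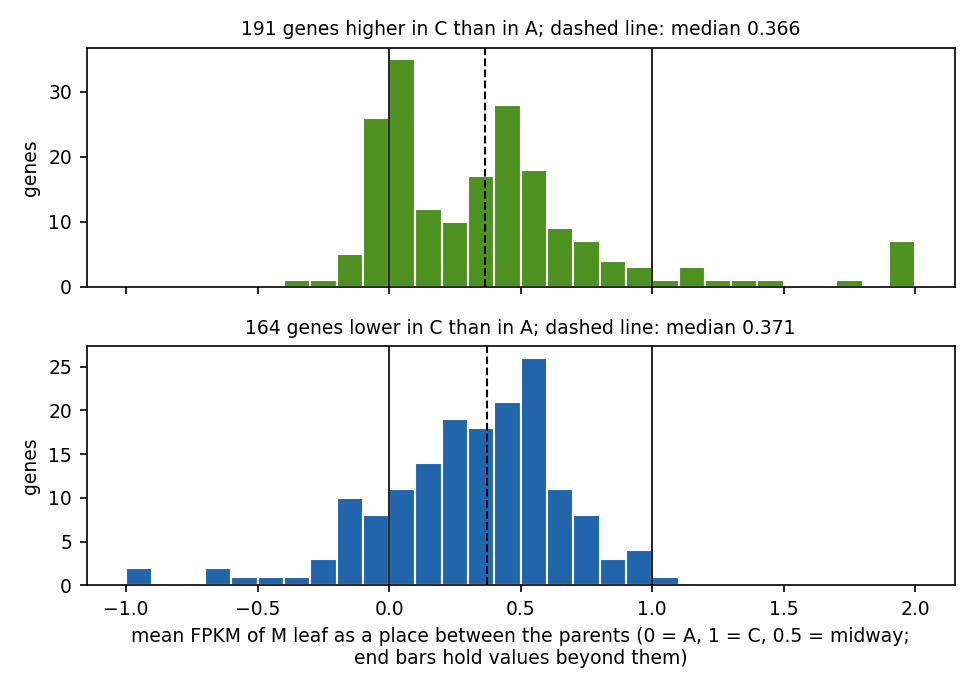
Number of genes (vertical axes) by the place of the M leaf mean between the parent means on the FPKM scale (horizontal axis, 0 for A and 1 for C), for 191 genes higher in C (top) and 164 genes lower in C (bottom). Dashed lines mark the medians of 0.366 and 0.371, and the upper panel has 1 peak near 0 and 1 near the midpoint.

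By calls, 128 genes were near A, that is, called against C, within 0.5 log2 of A and not called against it, with the parents called different. Of these, 62 were higher than C, among them Gh_A09G1283, Gh_A13G0603 and Gh_D10G2105, and 66 were lower than C, among them Gh_A06G0017 and Gh_A05G1247. Only 17 genes were near C, with 13 higher and 4 lower than A. Phospholipase C 2 Gh_A06G1440, which cleaves membrane phosphoinositides, was near C, with 5.13, 5.45 and 6.60 FPKM in M, against 3.20, 1.47 and 1.24 FPKM in A and 7.34, 7.02 and 6.77 FPKM in C (1.23 ± 0.17, adjusted p = 0.00102 against A). Selenium-binding protein 2 Gh_D02G0241 had 2.18, 2.03 and 1.62 FPKM in M, against 0.0182, 0.122 and 0.153 FPKM in A and 1.97, 3.51 and 2.92 FPKM in C. A further 17 genes were called opposite ways against the parents. The purple acid phosphatase 3 gene Gh_A03G0785, of a family that releases phosphate from organic esters, was one of them, with 2.62, 2.98 and 2.38 FPKM in M, against 11.8, 6.59 and 7.23 FPKM in A (-1.34 ± 0.16, adjusted p = 0.000192) and 0.287, 0.117 and 0.104 FPKM in C (1.65 ± 0.16, adjusted p = 1.1e-05). M lay between the parents there in every library.

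The genes that rose against C were next set against A. Over the 270 genes, the median log2 fold change of M against A was 0.60, with 56 called higher than A, 1 called lower and 88 within 0.5 of A. The same M libraries enter both values. Over the 122 genes that rose against A, the median against C was 0.82, with 56 called higher and 16 called lower than C.

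Calls in the photosynthesis, hormone and growth lists are read against the shares of all tested genes, 0.203% higher and 0.025% lower against A and 0.45% higher and 0.217% lower against C. At such shares lists of these sizes would hold few calls or none, and nothing particular to the lists is read from their counts. Among 298 light reaction genes 1 fell against C, the light-harvesting gene Gh_D01G2232, and none was called against A. Among 123 Calvin cycle genes none was called against either parent, and the median log2 fold change was -0.033 against A and -0.043 against C. The 58 leaf blade markers had medians of -0.089 against A and -0.25 against C, with 12.1% of them above 0 against C and 1 call. No gene of the auxin (271), cytokinin (117), ethylene (83), abscisic acid (65), brassinosteroid (53) or gibberellin (31) lists was called against either parent. Among 936 ribosomal protein genes 2 rose and none fell against A, 2 rose and 1 fell against C. Both calls against A were lost without M replicate 1, M replicate 3 or A replicate 2 and when only M, A and C were fitted. Of the 2, 1 was left without M replicate 2 or A replicate 1. The 1 call without A replicate 2 was another gene. Of the 936 genes, 79.8% had a fold change above 0 against A, with a median of 0.21, beside -0.048 against C. The 101 markers of dividing cells had medians of 0.21 against A and 0.11 against C, with 1 call. It was Gh_A05G1256, a subunit of the MCM replication helicase, with 9.28, 7.82 and 7.76 FPKM in M, against 3.45, 2.42 and 1.76 FPKM in C and 10.4, 4.53 and 7.26 FPKM in A (1.41 ± 0.25, adjusted p = 0.00483 against C). Summed dividing cell markers were 948, 891 and 910.3 FPKM in M, against 972, 588 and 814 FPKM in A and 865, 852 and 688 FPKM in C. A replicate 2 was the lowest, and it was also the lowest A library in the terpene synthesis sum. The part of cell division in the terpenoid result was not tested. In all, 27 of 45 lists held no call against A and 18 held none against C.

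The wider annotation classes are given beside the same shares of all tested genes, with nothing particular to them read from counts near those shares. Of 5089 genes annotated to the chloroplast in Gene Ontology, 7 rose and none fell against A, and 17 rose and 4 fell against C. Of 2775 ATP binding genes, 2 rose and none fell against A, and 5 rose and 2 fell against C, with 1 that rose without C replicate 2. Of 1832 extracellular region genes, 3 rose and 6 fell against C, with 10 that fell without C replicate 3. Among 121 KEGG pathways with at least 30 tested genes, those with the largest share of genes that rose against C were sesquiterpenoid and triterpenoid biosynthesis (6 of 90, 6.67%), butanoate metabolism (4 of 65, 6.15%), diterpenoid biosynthesis (5 of 84, 5.95%) and terpenoid backbone biosynthesis (11 of 225, 4.89%), a ranking made after the values were seen. The thiolases and HMG-CoA synthases named above are annotated to more than 1 of these pathways. Among ascorbate and aldarate metabolism genes 8 of 283 rose and 1 fell against C, the risers being in part the laccases, and without C replicate 3 the counts were 5 and 5. Starch and sucrose metabolism had 6 of 1232 genes that rose and 2 that fell against C, and 1 that rose against A.

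Calls were spread over the genome. In the A subgenome 68 of 22422 genes rose and 28 fell against C (0.428% called), and in the D subgenome 76 of 23220 rose and 24 fell (0.431% called). Chromosome A13 had the largest share of genes called against C (1.03%), followed by A04 (0.909%), where the terpene synthase Gh_A04G1296 was among the genes called. Loci with no chromosome in the name had a larger share (1.42%), with 126 that rose and 78 that fell.

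The genes above both parents in leaf were next set against the other tissues. Of 68947 genes tested in all 63 libraries, 314 (0.455%) had a difference of M from the mean of its parents that itself differed between leaf and flower buds, and 121 (0.175%) between leaf and ovule, at an adjusted p under 0.05. Gh_A13G1970 was among both, and glutathione peroxidase 6 Gh_D09G1595 among the second. These genes were chosen for their leaf values, which also enter this test, so larger differences in leaf are favoured by the choice and the 2 genes are given as a description. In contrast, the FatB thioesterase gene Gh_A07G0026 differed from the mean of its parents by 1.77 on the log2 scale in leaf, beside 1.96 in flower buds and 1.56 in ovule, and the change between tissues did not pass the test.

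Of the 9 genes that the study names as candidates for yield heterosis, none of those tested was called by limma in M leaf against either parent. The study reports them as differentially expressed in flower buds of H or in ovule of L, at an unadjusted p. The values of M leaf, another hybrid and tissue, therefore do not test that report. At an unadjusted p under 0.05 there were 2 against A, Gh_A03G1024 and Gh_A08G2199, and 0 against C. MAP kinase 4 Gh_D08G1467, a signalling kinase, stood at 6.81, 6.48 and 5.94 FPKM in M, against 6.37, 5.24 and 6.16 FPKM in A and 6.02, 5.59 and 5.89 FPKM in C. The BZR1 family gene Gh_A03G1024, of brassinosteroid signalling, had 13.4, 12.1 and 1.37 FPKM in M, against 2.19, 0.617 and 1.48 FPKM in A and 2.39, 13.6 and 9.91 FPKM in C, with 1 low library in both M and C. The ADP-glucose pyrophosphorylase large subunit gene Gh_D07G1312, of starch synthesis, stood at 1.12, 1.103 and 1.20 FPKM in M, against 1.98, 0.766 and 0.455 FPKM in A and 1.87, 1.29 and 1.22 FPKM in C. M and parent libraries overlapped at each of the 3. One candidate, Gh_A12G2183, was not among the tested genes.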

How the data were processed

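RNA of leaf, flower buds and ovule of 7 genotypes, with 3 biological replicates each, was sequenced on an Illumina instrument. According to the methods of the study, the authors trimmed reads with Cutadapt, mapped them with HISAT, assembled and merged transcripts with StringTie and deposited FPKM values per gene, made with StringTie and Ballgown. For the build of the genome, no name is given in the sources used here. Of the deposited table of 80325 genes, the 63 FPKM columns of the series were used, and 21 further columns of per-sample values that match no sample were not used.

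FPKM values were transformed as log2(FPKM + 1). Genes that exceeded 0.5 FPKM in 1 or more of 21 leaf libraries (60031) were fitted with limma 3.58.1 (trend and robust settings, R 4.3.3) with 1 mean per genotype, and contrasts of M with A, with C and with their mean were tested two-sided. Genes with a Benjamini-Hochberg adjusted p under 0.05 and a log2 fold change beyond 1 were called, and any adjusted p printed is from limma. Tissue differences came from the same model on all 63 libraries. The procedure was tested on simulated data. Library totals in reads were not used, so depth is unknown, and 3 replicates per group set the precision. As leaves were pooled within replicates, the spread is between composite samples.

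Named genes were, by rule, the 10 described genes with the largest rise and the 10 with the largest fall against each parent whose libraries did not overlap, the 10 described genes in each direction farthest outside both parents, up to 4 called members per gene list, the 5 largest near 1 parent in each direction and the 9 candidate genes of the study. A part of these is given, and others are stated as chosen after their values were seen, which holds for all mevalonate route genes. Members and lists were chosen with earlier results of these data known. Lists were drawn from the deposited descriptions, KEGG and Gene Ontology terms. Alternatives were a pseudocount of 0.1, other filters (none, or 1 FPKM or more in each of 3 libraries of some genotype), other thresholds, TMM (trimmed mean of M values) rescaling of FPKM, a fit on M, A and C alone, a replicate block, leaving out each library and, added after the data were seen, leaving out loci at or under 0.1 FPKM in all libraries of M, A or C. Columns of gene annotation served for names. Tables were made with Python 3.11.15 and pandas 2.3.3, and figures with matplotlib 3.10.9.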

Additional observations from a re-analysis of the deposited data

Results flagged for a closer look

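Of the 63 genes called higher or lower in M leaf than in both parents, 22 were examined in the other tissues, 12 with a description and 10 without one. Of the 22, 12 had a difference from the mean of A and C that itself differed between leaf and another tissue, by the tissue term of limma at an adjusted p under 0.05. The genes were chosen for their leaf values, which also enter this test, so the choice favours a larger difference in leaf and the adjusted p is no independent support. Values are the difference of M from the mean of A and C in leaf minus that in the other tissue, on the log2 scale. Gh_A13G1970 differed by 1.11 from flower buds and by 3.38 from ovule, glutathione peroxidase 6 Gh_D09G1595 by 1.93 from ovule and glutathione peroxidase 2 Gh_A09G2408 by 1.48 from flower buds. At these genes M stood further above the mean of its parents in leaf than in the other tissue. The homeodomain-like gene Gh_D09G1543 differed by 0.74 from flower buds and by 0.80 from ovule, terpene synthase 03 Gh_A04G0923 by 1.13 from flower buds and heat shock protein 90.1 Gh_D03G1421 by 1.77 from ovule. Of the genes below both parents, cytochrome P450 gene Gh_D11G1440 differed by -0.89 from flower buds and by -1.24 from ovule, and the undescribed Gh_D01G1518 by -1.17 from flower buds. The leaf calls of Gh_D01G1518 were weak, since the call against A was lost with TMM rescaling, with the replicate block and without any 1 library other than A replicate 3, and the call against C was lost without any 1 library of M or C. The undescribed MSTRG.15496 differed by 1.76 from flower buds and by 1.80 from ovule, and Gh_D06G0237 by 0.51 from ovule. MSTRG.21790 differed by -1.04 from flower buds and by -1.26 from ovule, and MSTRG.32278 by -0.86 from flower buds and by -1.06 from ovule. For these 2 loci M exceeded its parents in each tissue, and by less in leaf. The undescribed loci were chosen after their values were seen.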

How the results depend on the processing

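The counts of called genes were 137 against A, 400 against C, 181 against the mean of A and C, 355 between C and A, and 63 the same way against both parents. With the unadjusted p and the same fold threshold they were 626, 966, 598, 843 and 219 in that order. With no fold threshold they were 213 against A, 704 against C, 412 against the mean and 742 between C and A. A pseudocount of 0.1 gave 317 against the mean of A and C. Without loci that were off in M, A or C, an alternative added after the data were seen, 67 genes were called against A, 108 against the mean and 29 the same way against both, since those loci were no longer tested. TMM rescaling, both other filters and the fit on M, A and C alone kept all 5 counts within 1.5 times. That last fit gave 106, 271, 124, 240 and 48. Leaving out each library gave 123 to 204 against A, 347 to 421 against C, 154 to 205 against the mean, 319 to 486 between C and A, and 48 to 78 the same way, the highest count against A being without A replicate 3. Of 223 calls of named genes, 124 held in every setting, 154 held whichever library was left out, 83 were lost in the fit on M, A and C alone and none reversed.

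Same-numbered libraries of M and A had deviations correlated at -0.0029 to 0.072, and those of M and C at -0.028 to 0.019, so the numbers do not pair M with either parent. Those of C and A ran from -0.021 to 0.233, the highest being replicate 1 of both. With the replicate block the counts were 132, 385, 163, 347 and 58, and 13 of the 223 calls were lost.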

Other observations

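Genes of sulfur assimilation and of surface transport were also among those that rose against C, and all of those given here were chosen after their values were seen. Of 122 KEGG sulfur metabolism genes, 2 rose and none fell against C (1.64%, beside 0.45% of all tested genes that rose), and none was called against A. ATP sulfurylase 1 Gh_A02G0333, which activates sulfate, stood at 23.3, 20.2 and 24.1 FPKM in M, against 9.85, 10.4 and 7.78 FPKM in C and 14.2, 14.8 and 12.0 FPKM in A (1.19 ± 0.15, adjusted p = 0.000185 against C by limma). O-acetylserine (thiol) lyase Gh_A13G0863, which makes cysteine, had 3.63, 4.98 and 3.52 FPKM in M, against 0.993, 1.54 and 1.13 FPKM in C and 1.69, 1.75 and 1.75 FPKM in A (1.18 ± 0.12, adjusted p = 1.25e-05 against C). All M libraries were above all parent libraries at both. Sulfate transporter 2;1 Gh_D10G0996 had 4.71, 4.003 and 5.996 FPKM in M, against 1.37, 1.23 and 0.484 FPKM in C, a call that was lost without M replicate 1, M replicate 3 or C replicate 3.

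An A subgenome gene and a D subgenome gene of white-brown complex protein 11, an ABC transporter known in Arabidopsis for the export of wax and cutin lipids, rose against C. Gh_A11G1852 stood at 10.05, 9.28 and 9.63 FPKM in M, against 3.92, 3.38 and 2.70 FPKM in C and 5.52, 4.72 and 7.97 FPKM in A (1.31 ± 0.18, adjusted p = 0.000478 against C), and Gh_D11G2156 rose by 1.19 on the log2 scale. Glutathione S-transferase phi 12, known in Arabidopsis for the transport of flavonoids to the vacuole, had 32.0, 32.2 and 36.7 FPKM in M at Gh_A07G0667, against 14.8, 13.2 and 9.16 FPKM in C and 26.0, 17.8 and 24.0 FPKM in A (1.39 ± 0.21, adjusted p = 0.00141 against C). The D subgenome gene Gh_D07G0745 rose by 1.16. In each of these genes A lay between C and M in its mean.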
